A study of Mus musculus with 23 samples.

Results

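The lungs of Rarres1 knockout (KO) mice at 18 months of age were compared with KO lungs at 10 months across all genes. The comparison took every KO library of non-tumour lung at these ages, which is 8 of the 23 RNA libraries of the series: 3 lungs at 10 months and 5 at 18 months. All 8 are labelled Rarres1-KO, on a C57BL/6 strain background, male, non-tumour, untreated and from pathogen-free housing, so the age is the labelled difference between the groups. The Rarres1 deletion is carried by both ages, and a WT comparison of the same ages (3 lungs each, same strain, sex label and housing) served only to ask where KO lung differed. The labels number the 18-month lungs 1, 2, 3, 6 and 7 in the library codes, and the titles number lungs 6 and 7 as 4 and 5. Lungs 1, 3 and 6 share their animal code with a lung tumour library of the series, and lungs 2 and 7 do not. Nothing in the labels says how the gene was deleted, how the non-tumour tissue was cut, or which animals at 10 months were related to those at 18 months.

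Rarres1 (retinoic acid receptor responder 1) encodes a retinoid-inducible membrane protein that is often silenced in cancers. The lung holds a thin gas-exchange epithelium of alveolar type 1 and type 2 cells, a dense capillary bed, fibroblasts, and resident macrophages. Lymphocytes and antibody-secreting plasma cells gather in the lung with age in mice. Lymphocytes are drawn into tissue by chemokines, several of which, such as Cxcl9 and Cxcl10, are induced by interferon. In bulk tissue, fewer cells of a type and less RNA per cell cannot be told apart.

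No gene passed edgeR's test between 18 and 10 months in KO lung, and DESeq2 called 9. The largest differences of gene lists, none with a gene called by edgeR, were of 2 kinds. By their mean level, T cell genes stood higher in 18-month lungs 1, 3, 6 and 7 than in any 10-month lung, and lung 2 did not. Genes of chemokines and cell division stood higher mainly in 18-month lungs 1 and 6, and plasma cell genes mainly in lungs 6, 7 and 1. Genes of heart muscle, fat and blood stood lower at 18 months, and the gap in these came largely from 10-month lung 2. Mesothelial genes also stood lower, mainly in 18-month lungs 6 and 7, and their median was -0.465 without 10-month lung 2. Gvin1, 1 of the 9 genes for which the tools disagreed, has a near-identical neighbour, and the counts of the pair together did not differ past the test.

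Total counts were 26.84 to 32.04 M (M is 1e6 counts) at 10 months and 23.66 to 46.57 M at 18 months, and 17394 to 17720 genes were detected per library. Rarres1, on chromosome 3 from 67478886 to 67515523 (GRCm38.p6), had 0 reads in all 8 libraries, as their labels say. One library went against its sex label. The library labelled male lung 7 at 18 months held 21491 reads of Xist, the RNA that coats the inactive X chromosome, and 0 reads of Ddx3y, Kdm5d, Uty and Eif2s3y on the Y chromosome. The other 7 KO libraries held 2 to 17 Xist reads and 3285 to 6009 reads of these Y-linked genes. Every result is therefore also given without lung 7 where that changes what is said. A second library stood apart at 10 months. The mean level of heart muscle genes, as log2(CPM + 1) with CPM the counts per 1e6 counts, was 5.71 in 10-month lung 2 against 3.00 and 4.17 in 10-month lungs 1 and 3. Its adipocyte level was 4.06 against 2.13 and 1.70.

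The defining markers of lung were at high levels in both groups. The mean level of the alveolar type 2 list, surfactant genes among them, was 9.04 to 9.65 at 10 months and 9 to 9.64 at 18 months. For the alveolar type 1 list it was 9.29 to 9.44 and 8.84 to 9.43. In a principal component analysis of the 500 most variable genes, component 1 held 38.09% of the variance and set 10-month lung 2 at 20.4 and 18-month lung 6 at -19.09. The other 6 libraries lay between -7.95 and 6.05 on it, where 18-month lung 2 (2.85) lay above 10-month lung 1 (1.27) and all other 10-month lungs lay above all 18-month lungs. Hba-a1 and Sln were among the genes with the largest weights on its high side, and Xist, Mzb1 and Cxcl9 on its low side. Hba-a1, a globin gene, stood at 0 CPM in 18-month lung 6 and at 4467 CPM in 10-month lung 2. Component 2 held 26.37%, with the library labelled male lung 7 at 13.76 and 10-month lung 2 at 11.36 on its high side. The genes with the largest weights on that side included Xist and the muscle genes Myh6, Pln, Tnni3 and Mb. On the low side they included the Y-linked Ddx3y, Kdm5d, Uty and Eif2s3y. The components were not computed without these genes or without lung 7.

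**Figure D1:**
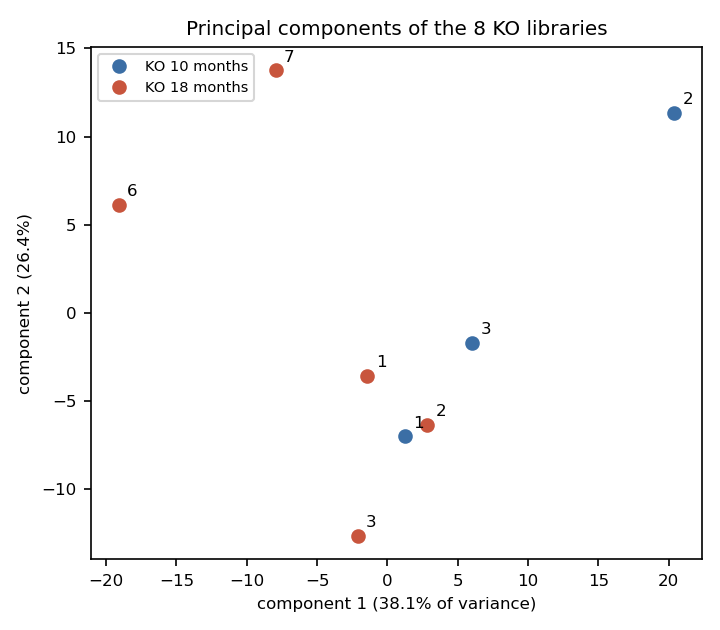
Scores of the 8 KO libraries on the first components of log2 expression of the 500 most variable genes, with each point a library, its lung number beside it and colour for age. The libraries at the ends of component 1 are 10-month lung 2 (20.4) and 18-month lung 6 (-19.09), and apart from 18-month lung 2 (2.85) the 10-month lungs lie to the right of the 18-month lungs. Xist and Hba-a1 are among the genes with the largest weights on component 1.

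Among 15455 genes tested, 0 (0% of genes tested) had an adjusted p under 0.05 in edgeR's quasi-likelihood test, and the lowest adjusted p was 0.893. At an unadjusted p under 0.05 there were 782 genes, 5.06% of those tested, of which 474 were higher at 18 months (3.07%) and 308 lower (1.99%). The groups did not overlap for 302 genes that were higher (1.95%) and 257 that were lower (1.66%). Where no gene differs, an unadjusted p under 0.05 is still met by a share of about 0.05. Groups this small also separate fully for some genes by chance. The median log2 fold change over all genes was 0, with 50.04% of genes above 0, and 275 genes differed by more than 1 on the log2 scale. DESeq2 called 9 genes, 8 higher and 1 lower, with 965 at an unadjusted p under 0.05. With 0 genes called by edgeR each time, the count at an unadjusted p under 0.05 was 538, 322 and 557 without 10-month lungs 1, 2 and 3. It was 740, 1300, 778, 736 and 703 without 18-month lungs 1, 2, 3, 6 and 7. It thus fell whenever 2 lungs were left at 10 months, most without lung 2, and among the 18-month lungs it was moved most by lung 2.

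Gvin1, a very large interferon-inducible GTPase gene on chromosome 7 from 106156535 to 106215340 (GRCm38.p6), had the smallest unadjusted p among the genes named by rule and was the lower gene in DESeq2. Its neighbour Gm4070, on the same chromosome from 105895118 to 105953967, was among the higher genes in DESeq2. In the GENCODE annotation of GRCm38 their coding sequences have 7284 bases each, are 99.96% identical and differ at 3 positions, and 95.82% of all stretches of 100 bases in one are also in the other. The 3 differences, G1805T, G4904A and C7075T, give the Gvin1 base first, the position counted from the first base of the coding sequence, and the Gm4070 base. They are shown with the 20 bases on each side, 5′ to 3′ on the coding strand, with the differing base in capitals, because within the coding sequence a read has to cover such a base to be told apart.
Gvin1, position 1805: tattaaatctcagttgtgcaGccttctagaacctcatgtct
Gm4070, position 1805: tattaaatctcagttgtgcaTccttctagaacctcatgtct
Gvin1, position 4904: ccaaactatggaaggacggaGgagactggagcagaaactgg
Gm4070, position 4904: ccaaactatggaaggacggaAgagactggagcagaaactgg
Gvin1, position 7075: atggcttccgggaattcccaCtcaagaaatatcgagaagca
Gm4070, position 7075: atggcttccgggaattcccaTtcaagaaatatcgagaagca

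Gvin1 stood at 77.7, 88.3 and 94.2 CPM in 10-month lungs 1, 2 and 3, and at 15.0, 30.7, 42.7, 17.1 and 20.6 CPM in 18-month lungs 1, 2, 3, 6 and 7. Gm4070 stood at 102, 95.1 and 136 CPM at 10 months and at 211, 149, 192, 229 and 193 CPM at 18 months. The groups do not overlap for either gene, and they stood apart in opposite directions. Their log2 fold changes were -1.78 ± 0.29 for Gvin1 and 0.81 ± 0.16 for Gm4070 (± SE, n = 3 and 5), with an adjusted p of 0.893 for both in edgeR. In DESeq2 the adjusted p was 4.156e-05 for Gvin1 and 0.005687 for Gm4070.

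Counted together, the pair stood at 180, 183.4 and 230.2 CPM at 10 months and at 225.7, 179.4, 234.6, 245.8 and 213.2 CPM at 18 months. These sums overlap between the ages. For the sum the log2 fold change was 0.152 ± 0.124 (SE), with an unadjusted p of 0.2508 and an adjusted p of 0.8933 in edgeR. The share of the pair's counts assigned to Gvin1 was 43.19%, 48.16% and 40.91% at 10 months and 6.656%, 17.12%, 18.19%, 6.961% and 9.66% at 18 months. In WT lung Gvin1 varied within each age, at 77.4, 15.8 and 11.3 CPM at 10 months and 21.4, 140 and 79.1 CPM at 18 months. In the same WT lungs Gm4070 stood at 91.1, 223 and 158 CPM at 10 months and at 155, 18.8 and 73.9 CPM at 18 months. Within each age it was lowest in the WT lung where Gvin1 was highest. How the estimated counts were divided between the 2 copies was not tested.

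**Figure D2:**
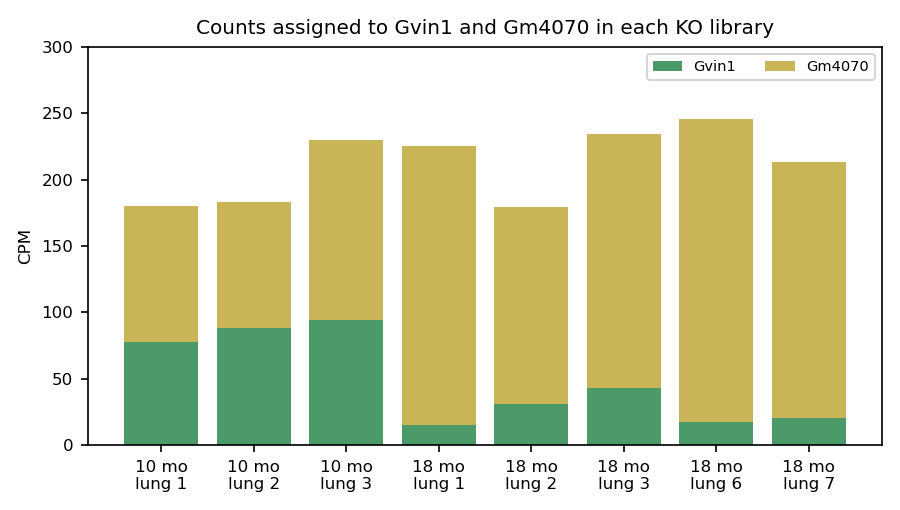
Stacked bars of the TMM-scaled CPM assigned to Gvin1 (lower part) and to Gm4070 (upper part) in each of the 8 KO libraries, from 0. The Gvin1 part takes 40.91% to 48.16% of the bar at 10 months and 6.656% to 18.19% at 18 months, while the full bars overlap between the ages.

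C130026I21Rik and Gm7609, predicted genes that lie near each other on chromosome 1 in a region of many similar copies, were also higher in DESeq2. C130026I21Rik stood at 1.55, 3.76 and 2.12 CPM at 10 months and at 11.9, 7.51, 6.46, 10.7 and 10.8 CPM at 18 months. Its log2 fold change was 1.94 ± 0.32 (SE), against 1.27 ± 0.31 in WT. Gm7609 had a log2 fold change of 1.27 ± 0.26 (SE) in KO and 1.63 ± 0.24 in WT. DESeq2 also called both genes higher in WT. Both genes are reported as uncertain, since counting could split reads among copies, and they are outside the naming rule.

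The other genes that DESeq2 called higher were Grip2, Oas1a, Cd3e, Pla2g2d and Nfkbid. Grip2, a scaffold protein that binds glutamate receptors, is on chromosome 6 from 91761452 to 91843954. It stood at 1.83, 1.152 and 1.98 CPM at 10 months and at 4.15, 4.93, 5.90, 5.29 and 12.1 CPM at 18 months. All 18-month lungs were above all 10-month lungs, and lung 7 was far above the other 18-month lungs. This gave a log2 fold change of 1.96 ± 0.38 (SE, n = 3 and 5; edgeR adjusted p = 0.893, DESeq2 adjusted p = 0.0005575) and 1.61 without lung 7. In WT lung Grip2 stood at 4.12, 3.07 and 2.97 CPM at 10 months and 6.98, 5.57 and 5.10 CPM at 18 months, a log2 fold change of 0.80 ± 0.18. The difference between the genotypes was 1.17 ± 0.47, with an adjusted p of 0.9999 in edgeR.

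Oas1a, an interferon-induced enzyme that senses double-stranded RNA, is on chromosome 5 from 120896256 to 120907544. It stood at 8.64, 9.06 and 9.22 CPM at 10 months and at 15.3, 11.9, 13.1, 17.1 and 14.8 CPM at 18 months. The 10-month values were close together and all 18-month values lay above them. This gave a log2 fold change of 0.69 ± 0.14 (SE), and DESeq2 gave an adjusted p of 0.009811. Without lung 7 it was 0.68.

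Cd3e, a chain of the T cell receptor complex, is on chromosome 9 from 44998735 to 45009663. It stood at 3.12, 3.11 and 2.72 CPM at 10 months and at 9.48, 3.48, 7.87, 10.5 and 7.40 CPM at 18 months. Lung 2 at 18 months lay just above the 10-month lungs and the other 4 lungs well above them. The log2 fold change was 1.38 ± 0.31 (SE; DESeq2 adjusted p = 0.02487), against 0.15 ± 0.18 in WT, where the ages overlap. The genotype difference of 1.23 ± 0.41 had an adjusted p of 0.9999 in edgeR.

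Pla2g2d, a secreted phospholipase of lymphoid tissue and dendritic cells, stood at 4.01, 2.80 and 5.90 CPM at 10 months. At 18 months it stood at 9.87, 6.54, 8.83, 14.2 and 13.4 CPM. The groups do not overlap, though 18-month lung 2 came near the highest 10-month lung. The log2 fold change was 1.31 ± 0.30 (SE; DESeq2 adjusted p = 0.02577). Nfkbid, a nuclear inhibitor-like regulator of NF-kappaB, stood at 2.65, 2.42 and 3.07 CPM at 10 months and at 4.51, 3.80, 5.18, 5.41 and 5.12 CPM at 18 months. Its log2 fold change was 0.82 ± 0.18 (SE; DESeq2 adjusted p = 0.0465), and in WT -0.06 ± 0.29.

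The remaining genes named on the higher side passed neither tool. Tnf, the inflammatory cytokine, on chromosome 17 from 35199367 to 35202007, stood at 0.946, 0.691 and 1.56 CPM at 10 months and at 3.26, 3.17, 4.92, 2.73 and 1.77 CPM at 18 months. Lung 7 was the lowest of the 18-month lungs, and the log2 fold change was 1.58 ± 0.37 (SE). Prg2, the major basic protein of eosinophil granules, stood at 0.158, 0.230 and 0.813 CPM at 10 months. At 18 months it stood at 3.51, 1.096, 1.149, 3.64 and 9.77 CPM, highest in lung 7, for a log2 fold change of 3.24 ± 0.88 and 2.54 without that lung. Slc11a1, a metal transporter of macrophage phagosomes, had means of 9.89 ± 1.01 and 15.9 ± 3.57 CPM (SD, n = 3 and 5). Gpr65, a proton-sensing receptor of immune cells, had means of 3.93 ± 0.264 and 6.25 ± 0.897 CPM, and Gpr132, a receptor of lymphocytes and macrophages, 7.26 ± 0.380 and 12.7 ± 3.38 CPM. Kif1a, a motor protein of axonal transport, and Pomt1, an enzyme that adds mannose to proteins, had log2 fold changes of 0.44 ± 0.12 and 0.53 ± 0.14 (SE). Without lung 7 it was 1.40 for Cd3e, 1.22 for Pla2g2d, 0.80 for Nfkbid and 1.73 for Tnf on the log2 scale.

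On the lower side the differences were smaller. Igfbp3, a carrier of insulin-like growth factors, on chromosome 11 from 7206086 to 7215498, stood at 115, 105 and 128 CPM at 10 months and at 91.2, 82.4, 89.3, 78.3 and 91.2 CPM at 18 months. The ages are apart with little spread at 18 months, and the log2 fold change was -0.42 ± 0.09 (SE, n = 3 and 5; edgeR adjusted p = 0.893). In WT it was -0.27 ± 0.13. Wnt2, a signal of lung mesenchyme to the epithelium, on chromosome 6 from 17985474 to 18032772, stood at 32.6, 31.8 and 35.3 CPM at 10 months. At 18 months it stood at 21.1, 28.6, 25.9, 23.9 and 21.7 CPM, nearest to the younger lungs in lung 2. The log2 fold change was -0.45 ± 0.11 (SE) in KO and 0.06 ± 0.08 in WT, and their difference of -0.52 ± 0.15 had an adjusted p of 0.9999 in edgeR.

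Epha1, an ephrin receptor of epithelia, had a mean level of 55.9 ± 5.97 CPM in the younger and 39.2 ± 6.32 CPM in the older lungs (SD). Col13a1, a membrane collagen that marks a class of lung fibroblasts, had means of 86.9 ± 3.72 and 69.2 ± 7.87 CPM. Ackr3, a scavenger receptor for the chemokine Cxcl12, had means of 59.3 ± 6.60 and 44.8 ± 5.84 CPM. Itm2a, a membrane protein, had means of 17.8 ± 0.516 and 12.8 ± 1.59 CPM, and C1qtnf1, a secreted protein of the adiponectin family, 62.01 ± 5.06 and 50.04 ± 1.64 CPM. Pcdh7 (a protocadherin), Rgs4 (a regulator of G protein signalling) and Zc3h6 (a zinc finger protein) had log2 fold changes of -0.49 ± 0.13, -0.35 ± 0.10 and -0.38 ± 0.11 (SE).

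**Figure D3:**
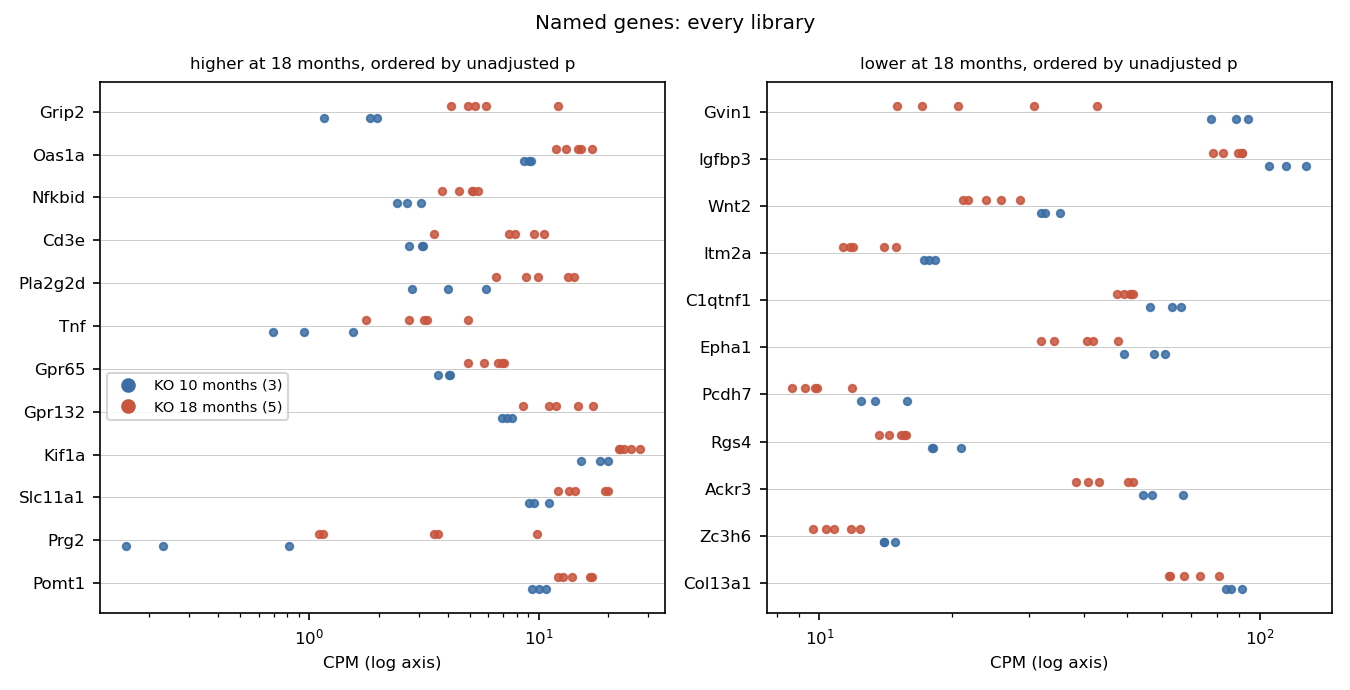
TMM-scaled CPM on a log axis of 23 genes named by rule, with a point for each of the 3 KO lungs at 10 months and 5 at 18 months. Genes were chosen for groups that do not overlap, so the separation is a condition of the choice; the 18-month Cd3e point nearest to the 10-month lungs is lung 2 at 3.48 CPM.

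T cell genes stood higher at 18 months in 4 of the 5 lungs. All 17 tested T cell genes had a log2 fold change above 0, with a median of 0.62 beside 0 over all genes, and 8 had an unadjusted p under 0.05, beside 3.07% of all genes. In edgeR 0 were called, as in all lists that follow, and DESeq2 called Cd3e. The level of the list was 2.78, 3.05 and 2.69 at 10 months and 3.90, 2.69, 3.36, 3.52 and 3.27 in 18-month lungs 1, 2, 3, 6 and 7. Lung 2 lay at the low end of the younger lungs, and the other 4 lay above them all. Cd8b1 and Cd8a, the chains of the CD8 coreceptor of killer T cells, had log2 fold changes of 0.62 ± 0.19 and 0.73 ± 0.26 (SE), and Cd3g, another chain of the receptor complex, 0.82 ± 0.28. Without lung 7 the list's median was 0.638. With lungs 2 and 7 alone at 18 months it was 0.16, and with lungs 1, 3 and 6, whose animals also gave tumour libraries, 0.828. Of the first pair only lung 2 was low, as lung 7 lay above all 10-month lungs. A link to the tumours was not tested for this list or for those below.

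All 11 tested genes of T cell checkpoints and exhaustion had a log2 fold change above 0, with a median of 0.873 and 0 called. Lag3, an inhibitory receptor, stood at 2.08, 1.11 and 2.19 CPM at 10 months and at 6.83, 1.80, 2.60, 11.3 and 6.77 CPM at 18 months. Lung 2 again lay within the younger lungs, and lungs 1, 6 and 7 far above them. Tigit, another inhibitory receptor, stood at 0.274 CPM in lung 2 and 5.26 CPM in lung 1, against 0.379 to 0.730 CPM at 10 months. Ctla4, a checkpoint receptor, and Ikzf2, a transcription factor of regulatory T cells, had log2 fold changes of 1.55 ± 0.55 and 0.63 ± 0.21 (SE). With lungs 2 and 7 alone at 18 months the list's median was 0.688, with 11 of 11 genes above 0. With lungs 1, 3 and 6 it was 1.127.

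Of 13 tested genes of NK and cytotoxic cells, 10 were above 0, with a median of 0.559 and 0 called. The 3 below 0 were the NK cell receptor genes Ncr1 (-0.06 ± 0.25), Klrb1c (-0.29 ± 0.27) and Klrd1 (-0.13 ± 0.24, SE). Gzma, a granzyme, was near 0 at 0.014 ± 0.271, so the height of the list was not that of its NK receptor genes. Gzmk, a granzyme of cytotoxic T cells, stood at 0.221, 0.269 and 0.389 CPM at 10 months and at 7.76, 0.313, 2.60, 4.13 and 0.551 CPM at 18 months. Eomes, a transcription factor of cytotoxic lymphocytes, stood at 1.29, 1.31 and 1.77 CPM at 10 months and at 10.98, 1.17, 7.13, 6.41 and 3.35 CPM at 18 months. For both genes lungs 1, 3 and 6 were highest and lung 2 overlapped the 10-month lungs. Ctsw, a cathepsin of cytotoxic cells, had a log2 fold change of 0.70 ± 0.23 (SE). With lungs 2 and 7 alone at 18 months the list's median was 0.076, and with lungs 1, 3 and 6 it was 0.778.

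The chemokine list had the highest median, 0.911, with 16 of 22 tested genes above 0, 7 at an unadjusted p under 0.05 (3.07% of all genes) and 0 called. That median was 0.666 with 1 CPM required in 3 libraries and 0.617 in limma-voom, below T cell checkpoints at 0.927 and 0.753. Ccl2, Ccl3, Ccl4, Ccl7, Ccl12 and Ccl20, all above 0, had 10-month means of 0.203 to 0.674 CPM. Ccl21a, Cxcl14, Cxcl16 and Cx3cl1, all below 0, had 85.8 to 160 CPM, while the abundant Ccl6 and Cxcl12 were above 0. Cxcl9, an interferon-induced attractant of activated T cells, stood at 1.04, 1.11 and 1.17 CPM at 10 months and at 33.0, 1.53, 2.13, 13.1 and 3.82 CPM at 18 months. Cxcl10, a ligand of the same receptor, stood at 1.58, 1.27 and 2.16 CPM and at 13.8, 2.66, 2.84, 10.2 and 2.52 CPM. Lungs 1 and 6 carried most of the height of both genes, and lungs 2, 3 and 7 lay nearer to the younger lungs but above them all. Ccl5, a chemokine that T and NK cells themselves secrete, stood at 17.8, 24.0 and 21.3 CPM and at 102, 18.1, 41.0, 58.6 and 49.2 CPM, with lung 2 within the younger range. Ccl20, an attractant of Ccr6-bearing lymphocytes, had means of 0.203 ± 0.126 and 1.68 ± 1.56 CPM (SD). Without 18-month lung 1 the list's median was 0.447, and without lung 7 it was 1.027. With lungs 2 and 7 alone at 18 months it was 0.187, and with lungs 1, 3 and 6 it was 1.212. Within these sets the list's level in lung 3 (3.36) lay within the 10-month range of 3.15 to 3.37, and lung 7 (3.45) lay above it.

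Plasma cell genes had a median of 0.867, with 9 of 11 tested genes above 0 and 0 called. At an unadjusted p under 0.05 in edgeR there were 5 (3.07% of all genes), but 1 without lung 7 and 0 without 10-month lung 2. Sdc1 and Fkbp11 were below 0, at -0.07 ± 0.12 and -0.07 ± 0.21 (SE), and Xbp1 was near 0 at 0.03 ± 0.09. The list's level was 3.64, 3.58 and 3.97 at 10 months and 4.47, 3.73, 3.81, 5.13 and 4.70 at 18 months. Lungs 1, 6 and 7 lay above the younger lungs and lungs 2 and 3 among them. Mzb1, a chaperone of antibody assembly, stood at 4.61, 4.57 and 8.16 CPM and at 22.2, 5.24, 6.48, 41.8 and 18.3 CPM. Pou2af1, a B cell coactivator, Derl3, of the secretory pathway, and Tnfrsf17, a survival receptor of plasma cells, had log2 fold changes of 0.87 ± 0.32, 1.69 ± 0.67 and 1.63 ± 0.69 (SE). With lungs 1, 2 and 3 alone at 18 months the list's median was 0.312. With lungs 2 and 7 alone it was 0.531, and with lungs 1, 3 and 6 it was 0.981.

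Dividing-cell and interferon genes had the same lungs on top. All 24 mitosis genes were above 0, with a median of 0.558 and 0 called. At an unadjusted p under 0.05 there were 6 (3.07% of all genes), and 2 without 10-month lung 2. The level was 2.22, 1.80 and 2.14 at 10 months and 2.83, 2.13, 2.29, 2.81 and 2.26 at 18 months. Lungs 1 and 6 were highest and lung 2 lay within the younger range. Mki67, a marker of cycling cells that was chosen after its values were seen, stood at 13.6, 10.0 and 13.5 CPM and at 25.1, 13.9, 21.4, 28.1 and 18.9 CPM. Of 28 interferon response genes 26 were above 0, with a median of 0.242, and edgeR called 0 while DESeq2 called Oas1a. All 10 MHC class II genes were above 0, with a median of 0.324, but 8 of 10 with a median of 0.12 without 10-month lung 2, and 0 were called. Of 18 genes of interstitial macrophages and monocytes 17 were above 0, with a median of 0.502 and 0 called.

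**Figure D4:**
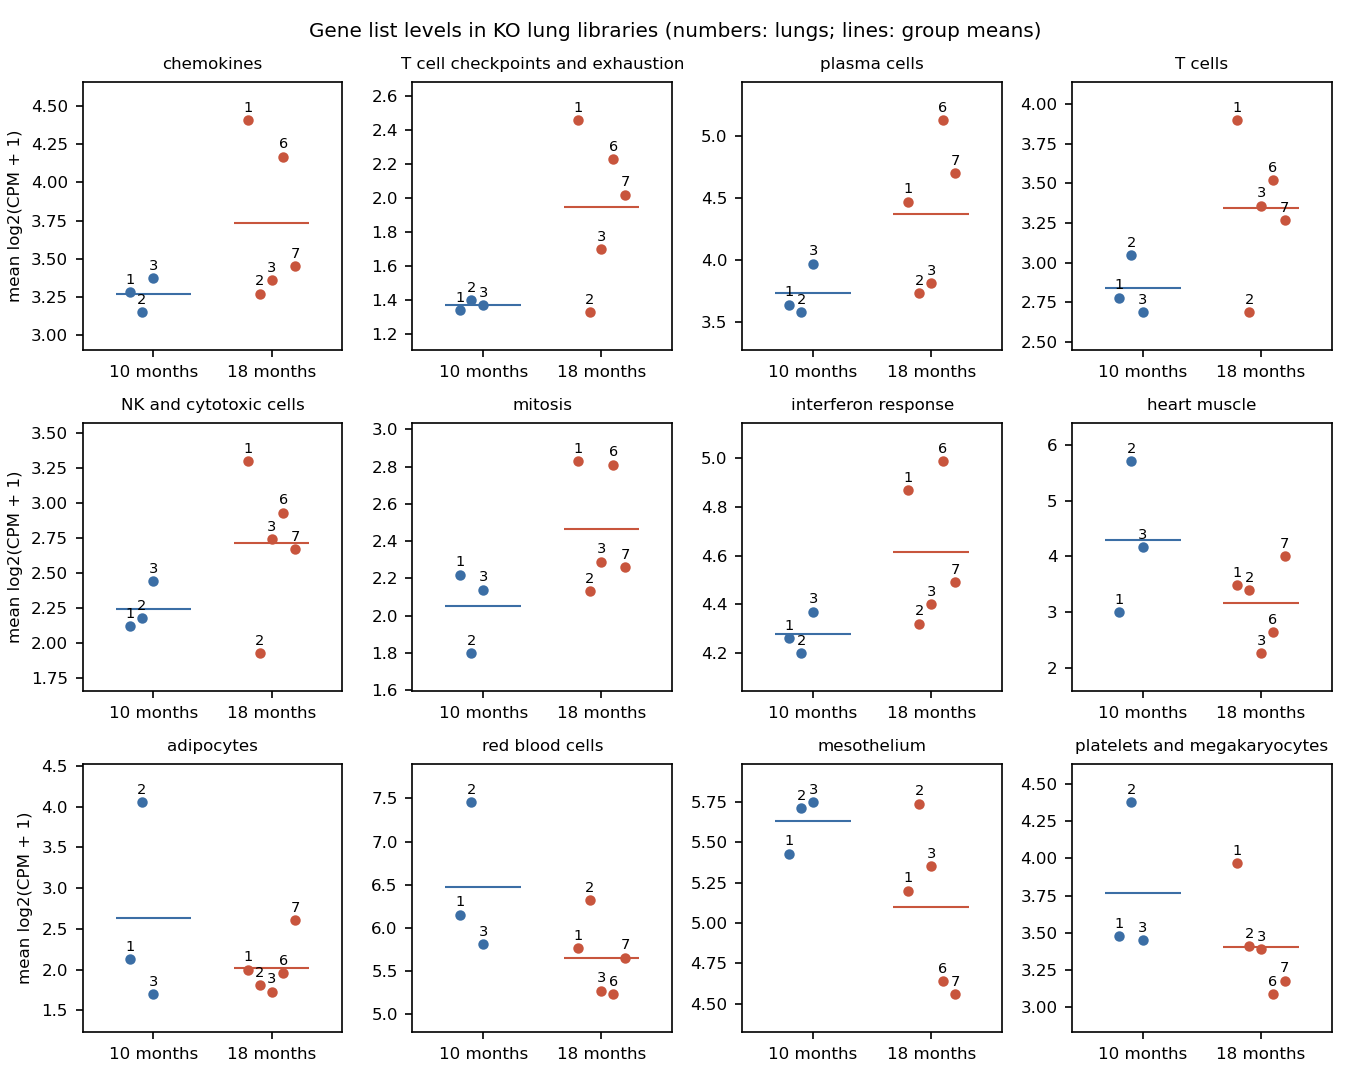
Mean log2(CPM + 1) of the genes of 12 lists in each KO library, with points for lungs (numbers beside them) and lines for group means; each panel has its own axis. For T cells, chemokines and mitosis 18-month lungs 1 and 6 are the highest and lung 2 lies within the 10-month lungs, while for heart muscle, adipocytes and red blood cells 10-month lung 2 is the highest.

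Heart muscle genes had the lowest median, -1.802, with 0 of 12 tested genes above 0 and 0 called. At an unadjusted p under 0.05 there were 8 of 12 (1.99% of all genes), but 1 without 10-month lung 2 and 12 without lung 7. Mybpc3, a myosin-binding protein of the heart, stood at 0.978, 20.8 and 3.39 CPM at 10 months and at 1.79, 1.92, 0.737, 1.08 and 3.03 CPM at 18 months. Sln, a regulator of the calcium pump in atrial muscle, stood at 1.45, 28.6 and 8.06 CPM and at 3.04, 2.54, 0.173, 0.703 and 3.03 CPM. Lung 2 was by far the highest for both, and 10-month lung 1 lay within the older lungs. Tnnc1, a cardiac troponin, had a log2 fold change of -1.81 ± 0.66 (SE), and Myh7, a slow myosin, stood at 54.6, 42.8 and 43.2 CPM and at 35.2, 42.6, 32.6, 21.6 and 32.2 CPM. Without 10-month lung 2 the list's median was -0.442, and without lung 7 it was -2.198.

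Adipocyte genes had a median of -1.4, with 0 of 8 above 0 and 0 called, and it was 0.331 without 10-month lung 2. Cfd, a complement factor secreted by fat, stood at 7.73, 78.9 and 6.22 CPM at 10 months and at 8.44, 3.95, 2.52, 9.55 and 13.1 CPM at 18 months. Pck1, an enzyme of glyceride synthesis in fat, stood at 1.04, 10.8 and 0.247 CPM at 10 months and at most at 1.02 CPM at 18 months. Adipoq (adiponectin) stood at 12.4 CPM and Retn (resistin) at 6.72 CPM in 10-month lung 2, each above all other KO lungs. All of these 4 genes had their highest value in that library.

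Red blood cell genes had a median of -1.013, with 1 of 9 above 0 and 0 called, and it was 0.036 without 10-month lung 2. Hbb-bt, an adult beta globin, stood at 281, 774 and 224 CPM at 10 months and at 201, 314, 135, 186 and 123 CPM at 18 months. The globins Hbb-bs and Hba-a2 had log2 fold changes of 0.17 ± 0.66 and -0.06 ± 0.63 (SE). Both were highest in 18-month lung 6, at 659 and 3964 CPM. Hba-a1 stood at 0 CPM in that lung and 150 CPM in lung 7, against 1398 to 1900 CPM in 18-month lungs 1, 2 and 3. How the estimated counts were divided among the globin genes was not tested. Bpgm, an enzyme that tunes haemoglobin's hold on oxygen, and Alas2, the first enzyme of haem synthesis in red cells, had log2 fold changes of -0.54 ± 0.22 and -0.75 ± 0.39 (SE). Platelet genes had a median of -0.507, with 0 of 8 above 0, and 0.004 without that library. Tubb1, the platelet tubulin, stood at 52.5 CPM in 10-month lung 2 against 9.26 to 32.1 CPM in the other 7 lungs. Ppbp, Treml1 and Gp1bb, of platelet granules and surface, had log2 fold changes of -0.68 ± 0.34, -0.63 ± 0.36 and -0.60 ± 0.38 (SE).

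Mesothelial genes, of the cell sheet around the lung, had a median of -0.528, with 7 of 8 below 0 and 0 called. The remaining gene, Krt19, was flat, with a log2 fold change of 0 ± 0.09 (SE). Upk3b, a uroplakin of mesothelium, stood at 64.9, 89.2 and 99.9 CPM at 10 months and at 50.3, 90.7, 61.1, 25.7 and 21.6 CPM at 18 months. Msln (mesothelin) stood at 61.7, 93.2 and 84.4 CPM and at 67.5, 83.2, 59.0, 28.1 and 23.7 CPM. Lungs 6 and 7 were low for both and lung 2 was as high as the younger lungs. Upk1b and Gpm6a had log2 fold changes of -0.31 ± 0.13 and -0.45 ± 0.22 (SE). The part that carried-along tissue had in these lists was not tested.

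Leaving out the library labelled male lung 7 changed the sign of none of the 10 list medians described and of none for mitosis. Without it the median was 0.937 for T cell checkpoints, 0.524 for NK and cytotoxic cells, 0.761 for plasma cells and 0.62 for mitosis. It was -1.849 for adipocytes, -0.97 for red blood cells, and -0.377 for both platelets and mesothelium. Leaving out 10-month lung 2 instead gave 0.8 for T cells, 0.742 for chemokines, 0.714 for plasma cells, 0.397 for mitosis and -0.465 for mesothelium.

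Among lists of the lung's own structure, some lay near the median of all genes and some had nearly all members below 0. For alveolar type 2 cells the median was -0.019 (6 of 16 above 0), -0.184 (2 of 16) without 10-month lung 2 and 0.048 (11 of 16) without lung 7. The median was -0.072 for general endothelium (5 of 14) and -0.001 for collagens (9 of 18). It was -0.244 for alveolar type 1 cells, with 1 of 14 above 0, and -0.189 for lung fibroblasts, with 1 of 15 above 0. Club cell genes, of the secretory airway epithelium, had 0 of 13 above 0 and a median of -0.146, and lymphatic endothelium 1 of 7 above 0 and a median of -0.28. Without 10-month lung 2 the medians of alveolar type 1 cells, fibroblasts, club cells and lymphatic endothelium were -0.194, -0.106, -0.083 and -0.155. Without lung 7 they were -0.188, -0.165, -0.089 and -0.264. The senescence and p53 list had a median of 0.121, with 14 of 19 above 0. None of these lists had a gene called by either tool.

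The WT lungs gave the same count by the same test. Of 15321 genes, 0 (0%) were called between 18 and 10 months, with 833 at an unadjusted p under 0.05 and a lowest adjusted p of 0.5122. DESeq2 called 17 genes there, 11 higher and 6 lower, and C130026I21Rik and Gm7609 were among the higher ones. With a WT library left out, edgeR called up to 10. The difference of the age effects, KO minus WT, was tested in 1 fit of 14 libraries: 0 of 15653 genes (0%) were called, 453 had an unadjusted p under 0.05 and the lowest adjusted p was 0.9999. DESeq2 called 1 gene in it, Gm7120. An age effect particular to KO lung was thus not shown by edgeR for any gene.

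Across 15216 genes the age effects of KO and WT, which share no library, correlated with a Pearson r of 0.3105 and a Spearman rho of 0.1726. Genes are not independent replicates, so this is a description. Of 754 genes with an unadjusted p under 0.05 in KO and a value in WT, 70.42% had the same sign in WT, against 55.84% of all genes. The T cell list had a median of 0.316 in WT, with 16 of 17 genes above 0, beside 0.62 in KO. The chemokine median was 0.016 in WT and the plasma cell median 0.035, beside 0.911 and 0.867 in KO. Mitosis genes had a median of -0.221 in WT, with 2 of 24 above 0, beside 24 of 24 in KO. Heart muscle and adipocyte medians were below 0 in both, at -0.702 and -1.016 in WT, where WT 10-month lung 1 stood highest with heart muscle at 6.23 and adipocytes at 4.30. Red blood cell genes had a median of 0.301 in WT. Among the named genes, the differences of the age effects for Wnt2, Epha1 and Pomt1 had unadjusted p-values of 0.00318, 0.003748 and 0.004332 in edgeR, each with an adjusted p of 0.9999.

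**Figure D5:**
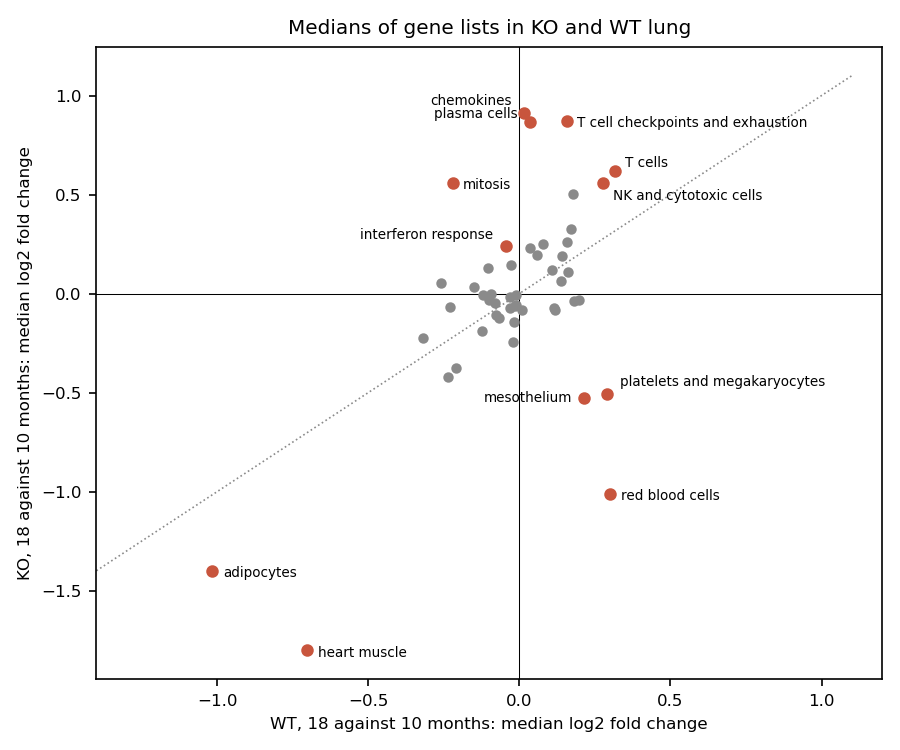
Median log2 fold change, 18 against 10 months, of each gene list with at least 8 genes tested, in WT lung (horizontal) and KO lung (vertical); the dotted line marks equal values and coloured points are the 12 lists of the level plot. Chemokines (0.911 in KO, 0.016 in WT) and mitosis (0.558, -0.221) lie above the line and red blood cells (-1.013, 0.301) below it, with 0 genes called for the difference.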

How the data were processed

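Lung RNA of 8 KO and 6 WT libraries was used. The authors deposited expected counts per gene, made with RSEM 1.3.0 per the submitters' processing notes, with decimals in 6.522% to 7.46% of values. They also deposited FPKM for the same genes. The notes further list STAR 2.5.2b, Trimmomatic 0.36 and build mm10; strand handling is not given in the sources used here. Expected counts were rounded and tested with edgeR 4.0.16 (R 4.3.3): TMM scaling, filterByExpr, a robust quasi-likelihood F test per comparison, and p-values adjusted by Benjamini-Hochberg over every tested gene, with calls at an adjusted p under 0.05. DESeq2 1.42.0, limma 3.58.1 (counts, and log2(FPKM + 0.1) and log2(FPKM + 1)), other scalings and filters, library subsets and left-out libraries were alternatives. Fold changes carry a prior count of 0.125, and each SE is the size of the fold change divided by the root of its F statistic. Level values are TMM-scaled CPM, and a list's level is the mean of log2(CPM + 1). The edgeR test was tested on simulated data.

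The comparison, the 55 gene lists and the naming rule were chosen with earlier results of these data known. The rule fills 12 genes per direction by smallest unadjusted p, with at least 2 CPM in the higher group, no overlap of the groups, and no predicted genes, and up to 4 members for the 5 lists with the highest and the 5 with the lowest medians among lists with at least 8 genes tested. Some genes that this rule names are not reported here. Replicates are separate samples per the labels, with nothing on cages or batches, so p-values reflect only how these samples vary, which may be technical. Within groups, 13 pairs of libraries had a chi-square per degree of freedom of 12.92 to 125 over genes with at least 20 counts, so none differed by counting error alone. Depth was 23.66 to 46.57 M counts per KO library. Gene positions are from RefSeq (GRCm38.p6), where 66 of 66 genes matched. Sequences are from the GENCODE transcripts of GRCm38, aligned with edlib 1.3.9. Figures were made with matplotlib 3.10.9 in Python 3.11.15.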

Additional observations from a re-analysis of the deposited data

Results flagged for a closer look

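In groups of 5 lungs, a value was singled out where its gap to the nearest other lung was large against the whole range of the group. Of 77 quantities examined, 4 (5.19%) met this, and chance gives about 1 in 20. The total counts of 18-month lung 3 were 46.57 M, above the other 4 lungs. The Xist reads of the library labelled male lung 7 were 21491, beside 0 reads of the Y-linked genes. Grip2 in lung 7 stood at 12.1 CPM, above the 4.15 to 5.90 CPM of the other 18-month lungs. Adipoq in lung 7 stood at 3.58 CPM, against 0.587 to 1.145 CPM in the other 18-month lungs.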

How the results depend on the processing

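The count of 0 genes called in KO lung held under other scalings, filters, limma, library subsets, a heart muscle covariate and each left-out library (range 0 to 0). It moved to 9 in DESeq2 and to 1 with the replicate number as a block. That gene was Marco, a macrophage receptor (log2 fold change 1.326, adjusted p = 0.04963 in edgeR with the block). The numbers do not pair the libraries: same-number deviations correlated at -0.116, 0.1071 and 0.03387, and 1 of 3 10-month lungs correlated best with its own number. For KO minus WT the count was 1 in DESeq2 and 0 elsewhere. In WT it was 17 in DESeq2, 1 with the replicate block (Nrn1) and 0 to 10 with a WT library left out: 10 without 18-month 1, 3 without 10-month 1 and 2 without 10-month 2.

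Some list medians also depended on the processing. Those of T cell checkpoints and adipocytes were 0.455 and -0.496 with log2(FPKM + 1), and that of plasma cells was 0.295 with the replicate block. Under the heart muscle covariate they were 1.324 for T cell checkpoints, 0.105 for adipocytes, -0.087 for red blood cells and -0.036 for platelets. Of 1543 values of 62 named genes under 25 settings, 1525 kept direction and side of the threshold, 6 newly passed it, all in DESeq2, and 12 changed sign. For genes chosen for groups that do not overlap, the choice itself fixes the direction when libraries are left out. With the heart muscle level as covariate the log2 fold change was 0.204 for Mybpc3 and 0.054 for Tnnc1. Both are members of the list that made the covariate, so the loss of their fall is largely by construction. For Adipoq and Retn, which are not in that list, the log2 fold change was 0.02 and 0.758. With each library left out in turn it ran from -2.54 to 0.096 for Cfd, -2.369 to 0.344 for Adipoq, -2.527 to 0.884 for Retn, -1.079 to 0.036 for Alas2 and -0.854 to 0.06 for Gp1bb, the values above 0 being those without 10-month lung 2. Without that lung and 18-month lung 7, left out together after the data were seen, it was 0.273 for Retn, 0.061 for Alas2 and 0.177 for Gp1bb. Summed with Gm4070, also added after the data were seen, Gvin1 stood at 0.152, by construction of the sum. Apart from Mybpc3, Tnnc1 and the summed Gvin1, the cause of the changes of sign was not tested.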
